A study of Homo sapiens with 12 samples.

Results

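The 8 transcription factor genes PAX2, PAX5, PAX8, EN1, EN2, LMX1A, LMX1B and GBX2 were followed across 12 RNA-seq libraries of micropatterned human embryonic stem cell colonies. Members were the entries of the deposited count table whose gene symbol equals one of these 8 names, out of 35940 symbols, and each of the 8 symbols stood on a single Ensembl identifier. Of the 8, 7 passed the filter on low counts that left 17047 genes for testing, and EN1 did not. The cells were ESI017, an established human embryonic stem cell line, and carried mCitrine as a fluorescent reporter of the pluripotency and neural factor SOX2. All colonies stayed on CYTOO micropattern coverslips for 3 days in N2B27, a serum-free basal medium. Control colonies (2 libraries) received N2B27 alone, and nothing in the labels says that they were sorted. Treated colonies received FGF8 at 200 ng/ml together with WNT3A at 100, 300 or 1000 ng/ml, and a cell sorter then split their dissociated cells by mCitrine into a SOX2-positive and a SOX2-negative fraction. Each fraction had 2 libraries at 100 and at 1000 ng/ml and 1 library at 300 ng/ml. The series title asks how endogenous Nodal changes the reading of WNT from posteriorization to germ layer differentiation. No library carries a stated change of Nodal. In each comparison with the control, FGF8, WNT3A and the sort differ together, so their shares cannot be told apart. The libraries are bulk samples of 1 reporter line, in which fewer cells of a type and less RNA per cell cannot be told apart.

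In the neural plate the midbrain-hindbrain boundary forms where the expression domain of OTX2, anterior, meets that of GBX2, posterior. Cells at this border, the isthmic organizer, secrete FGF8 and WNT1 and pattern the midbrain on one side and the cerebellum on the other. PAX2, then PAX5 and PAX8, and the Engrailed genes EN1 and EN2 are switched on across the border and hold its signals in place. LMX1B keeps Fgf8 and Wnt1 expressed at the isthmus, and LMX1A is best known for the roof plate and for floor-plate progenitors of dopaminergic neurons. None of the 8 is restricted to the brain. PAX2 and PAX8 also mark intermediate mesoderm, the kidney precursor, and the otic placode, PAX8 the thyroid, PAX5 B lymphocytes, and LMX1B dorsal limb mesoderm.

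The members lie on 5 chromosomes (GRCh38, GENCODE 29). LMX1A is at chr1:165201867-165356715 and LMX1B at chr9:126614443-126701032. The Pax genes are PAX2 at chr10:100735603-100829941, PAX5 at chr9:36833275-37034185 and PAX8 at chr2:113215997-113278950. EN1 is at chr2:118842171-118847678, EN2 at chr7:155458129-155464831 and GBX2 at chr2:236165236-236168369. Antisense transcripts share 685 exonic bases with PAX8, 221 with GBX2, 175 with LMX1A and 80 with PAX5. The exons of these 4 genes total 7400, 2315, 4185 and 9333 bases, in the same order. The sources used here do not state whether strand was kept, so within these overlaps reads of the 4 genes and of their antisense partners cannot be told apart.

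RefSeq promoter windows (GRCh38.p14, the 250 bases before an annotated start) were found for 7 of the 8 members, all but EN1. Those of the 4 members with a called difference are printed, 5′ to 3′ on the gene's own strand, because the levels described next differ most among them. PAX2 has 2 such windows, chr10:100735146-100735395 and chr10:100745332-100745581, both on the plus strand, and the second lies inside the gene but in none of its annotated exons. LMX1A is shown from its upstream start, chr1:165356716-165356965 on the minus strand. LMX1B is at chr9:126613678-126613927 on the plus strand, and GBX2 at chr2:236168387-236168636 on the minus strand. Capitals mark matches to the SOX motif.
PAX2, first start: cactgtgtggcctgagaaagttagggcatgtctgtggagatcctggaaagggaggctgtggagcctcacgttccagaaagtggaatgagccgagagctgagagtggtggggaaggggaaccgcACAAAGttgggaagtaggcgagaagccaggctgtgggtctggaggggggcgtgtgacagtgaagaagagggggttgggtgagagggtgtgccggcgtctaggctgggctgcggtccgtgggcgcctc
PAX2, second start: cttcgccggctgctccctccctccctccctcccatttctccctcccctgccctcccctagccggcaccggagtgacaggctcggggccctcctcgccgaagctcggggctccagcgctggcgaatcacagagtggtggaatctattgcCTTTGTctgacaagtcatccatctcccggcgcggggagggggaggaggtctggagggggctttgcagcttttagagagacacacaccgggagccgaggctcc
LMX1A: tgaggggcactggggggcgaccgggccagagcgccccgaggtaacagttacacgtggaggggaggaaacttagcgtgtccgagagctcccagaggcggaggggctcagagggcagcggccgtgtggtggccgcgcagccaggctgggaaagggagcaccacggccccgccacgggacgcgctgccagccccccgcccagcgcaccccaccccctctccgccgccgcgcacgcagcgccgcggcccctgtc
LMX1B: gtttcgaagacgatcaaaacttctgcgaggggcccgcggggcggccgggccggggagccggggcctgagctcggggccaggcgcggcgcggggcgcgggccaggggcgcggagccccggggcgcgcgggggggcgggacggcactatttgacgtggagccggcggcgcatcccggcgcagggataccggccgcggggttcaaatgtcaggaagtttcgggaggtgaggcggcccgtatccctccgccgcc
GBX2: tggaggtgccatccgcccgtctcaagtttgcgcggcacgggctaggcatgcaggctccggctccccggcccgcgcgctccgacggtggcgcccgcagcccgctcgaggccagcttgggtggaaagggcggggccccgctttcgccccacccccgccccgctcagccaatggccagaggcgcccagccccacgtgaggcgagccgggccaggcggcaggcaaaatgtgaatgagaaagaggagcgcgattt

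The 9 windows of these 7 members were rich in G and C, with a median of 69.6% against 58.0% over all 35116 windows of the same length. Short motifs were searched on both strands, and each is given with the share of all 35116 windows that hold it. They were CTTTGA for TCF/LEF (11.2%), TAATCC for OTX (5.62%), TAATTA for homeodomain factors (4.35%), ACAAAG for SOX (13.7%) and AGATAA for GATA (9.17%). The reverse complement of the SOX motif differs from the TCF/LEF motif in its last letter only. The SOX motif was in both PAX2 windows, as ACAAAG in the first and as CTTTGT in the second, and no other member's window held any of the 5. A match is a string of letters, not a shown binding site.

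Totals ran from 16474799 to 28078923 estimated counts per library, so 1 count stood for 0.0366 to 0.0599 CPM, the count scaled to the library's size, in which levels are given. As a check of the sort, SOX2 was at 418 to 467 CPM in the 5 SOX2-positive libraries, at 1.85 to 5.99 CPM in the 5 SOX2-negative libraries and at 652 to 676 CPM in the controls. WNT3A 100 SOX2-negative replicate 2 stood apart from the other SOX2-negative libraries on the second principal component, at -48 against -0.28 to 12.9. WNT3A 1000 SOX2-positive replicate 2 had the highest LMX1A and PAX2 of the SOX2-positive libraries.

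**Figure D1:**
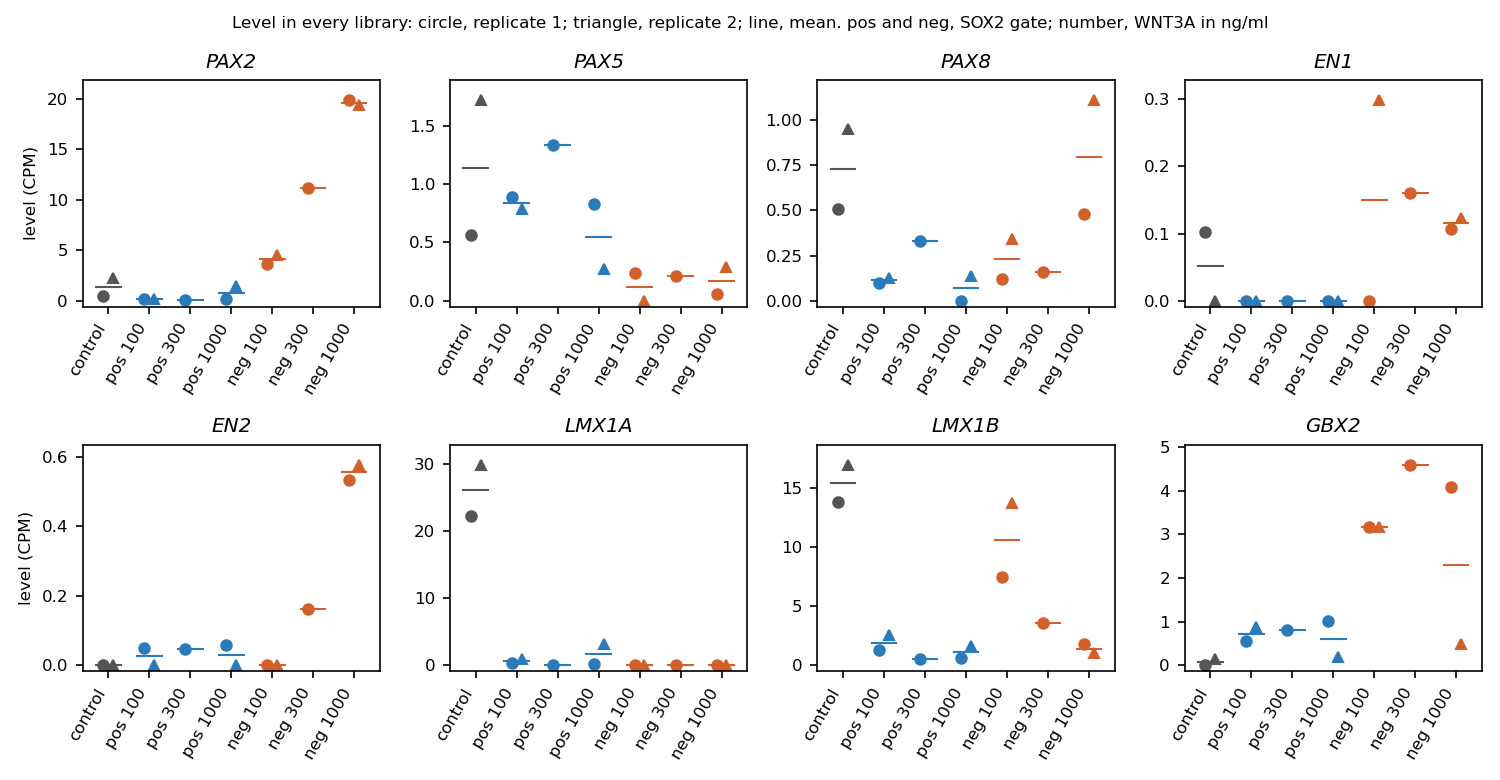
Level of each of the 8 genes in all 12 libraries, in CPM on a linear axis that differs between panels, by group (pos and neg, SOX2-positive and SOX2-negative cells, with WNT3A in ng/ml), with circles for replicate 1, triangles for replicate 2 and a line at the group mean. LMX1A sits at 22.3 and 29.9 CPM in the controls and at no more than 3.21 CPM elsewhere, while PAX2 is highest in SOX2-negative cells, up to 19.9 CPM at 1000 ng/ml.

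LMX1A and LMX1B, the LIM homeodomain members, were the most abundant of the 8 per kilobase of exon in untreated colonies and were lower in treated SOX2-positive cells at both replicated doses. In SOX2-negative cells of 100 ng/ml the pair differed: LMX1A had no count, while LMX1B reached 13.7 CPM, just under the lower control. LMX1A stood at 22.3 and 29.9 CPM in the controls. In SOX2-positive cells it was at 0.347 and 0.866 CPM at 100 ng/ml, 0 at 300 ng/ml, and 0.118 and 3.21 CPM at 1000 ng/ml. In SOX2-negative cells a single count was seen over all 5 libraries, at 1000 ng/ml in replicate 1. No treated library overlapped the controls.

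LMX1A fell against the control in all 4 tested groups. The difference in SOX2-positive cells was -5.39 ± 1.06 (log2 scale, SE) at 100 ng/ml, with an adjusted p of 0.021 from edgeR's quasi-likelihood test. The difference at 1000 ng/ml was -3.93 ± 0.97, with an edgeR adjusted p of 0.047. Pooled counts put the control 42.4-fold above the SOX2-positive cells of 100 ng/ml (95% counting interval 29.2 to 64.0) and 14.3-fold above those of 1000 ng/ml (11.3 to 18.4). Counting intervals leave out the spread between replicates: of the 73 counts in SOX2-positive cells of 1000 ng/ml, 71 came from replicate 2. For SOX2-negative cells the edgeR adjusted p was 0.0015 at 100 ng/ml and 0.0016 at 1000 ng/ml. With 0 counts in 2 libraries, LMX1A was at least 357-fold lower at 100 ng/ml than in the control, taking 3 counts over the group as the floor. At 1000 ng/ml the pooled ratio was 1150, with a counting interval of 206 to 45460. At 300 ng/ml, with 1 library per fraction and 0 counts in each, LMX1A was at least 187-fold lower in SOX2-positive and at least 166-fold lower in SOX2-negative cells.

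Both SOX2-positive calls for LMX1A depended on single libraries and on the processing. They were lost with DESeq2 (adjusted p = 0.079 at 100 ng/ml and 0.25 at 1000 ng/ml) and with identifiers kept apart in edgeR (0.052 and 0.094), and that at 1000 ng/ml also with library totals in place of TMM scaling (0.053). At 100 ng/ml the edgeR adjusted p rose to 0.18 and 0.11 without replicates 1 and 2 of that group, and to 0.084 and 0.15 without control replicates 1 and 2. At 1000 ng/ml it rose to between 0.063 and 0.27 without control replicate 1 or 2, without replicate 1 of its own group, and without any 1 of the 2 SOX2-positive libraries of 100 ng/ml and the 2 SOX2-negative ones of 1000 ng/ml, while without WNT3A 1000 SOX2-positive replicate 2 the difference was -7.72 with an adjusted p of 0.0056.

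Between the fractions, LMX1A was lower in SOX2-negative cells over 100 and 1000 ng/ml, with 1 count against 101 (edgeR adjusted p = 0.0083). The pooled ratio was 101, with a counting interval of 17.7 to 4014. Of the 101 counts, 71 came from WNT3A 1000 SOX2-positive replicate 2, and without that library the edgeR adjusted p was 0.034. The call was lost at 100 ng/ml alone (edgeR adjusted p = 0.077). It was also absent with the 3 doses averaged, but that setting cannot decide here, because LMX1A had 0 counts at 300 ng/ml in each fraction.

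LMX1B was at 13.8 and 17.0 CPM in the controls, at 1.24 and 2.56 CPM in SOX2-positive cells of 100 ng/ml, at 0.475 CPM at 300 ng/ml, and at 0.590 and 1.58 CPM at 1000 ng/ml. In SOX2-negative cells it was at 7.48 and 13.7 CPM at 100 ng/ml, 3.59 CPM at 300 ng/ml, and 1.75 and 0.989 CPM at 1000 ng/ml. The SOX2-negative cells thus spanned the range from near the control to the level of the SOX2-positive cells, and the 3 doses did not overlap. Against the control, LMX1B fell by 3.01 ± 0.55 on the log2 scale in SOX2-positive cells at 100 ng/ml (edgeR adjusted p = 0.013) and by 3.79 ± 0.58 at 1000 ng/ml (adjusted p = 0.0047). In SOX2-negative cells it fell by 3.49 ± 0.57 at 1000 ng/ml (edgeR adjusted p = 0.0017), and the difference at 100 ng/ml was -0.54 ± 0.50 (adjusted p = 0.48), or -1.04 without replicate 2 of that group (adjusted p = 0.3). The SOX2-negative call held in each of the alternatives tried. The SOX2-positive call at 100 ng/ml was lost without its replicate 1 (adjusted p = 0.13), control replicate 1 (0.059) or control replicate 2 (0.11), and that at 1000 ng/ml without control replicate 2 (0.051). Without replicate 2 of the treated group the difference was -3.63 at 100 ng/ml and -4.69 at 1000 ng/ml.

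Over 100 and 1000 ng/ml together LMX1B was 1.38 ± 0.39 higher in SOX2-negative than in SOX2-positive cells on the log2 scale (edgeR adjusted p = 0.027). The gap was 2.47 at 100 ng/ml alone (edgeR adjusted p = 0.012) and 0.30 at 1000 ng/ml alone (adjusted p = 0.83), a split chosen after seeing the data. Of the SOX2-negative libraries, leaving out replicate 2 of 100 ng/ml (adjusted p = 0.066) or replicate 1 of 1000 ng/ml (0.11) ended the call. Of the SOX2-positive libraries, leaving out replicate 1 of 100 ng/ml (0.09) or replicate 1 of 1000 ng/ml (0.087) did so. With only the compared groups in the fit the edgeR adjusted p was 0.051.

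PAX2, the earliest Pax gene of the boundary and also a gene of intermediate mesoderm, was the member with the highest level per kilobase of exon in any SOX2-negative library. In the SOX2-negative fraction its level was 3.65 and 4.53 CPM at 100 ng/ml, 11.2 CPM at 300 ng/ml, and 19.9 and 19.4 CPM at 1000 ng/ml. SOX2-positive cells had 0.198 and 0.124 CPM at 100 ng/ml, 0.0475 CPM at 300 ng/ml, and 0.118 and 1.40 CPM at 1000 ng/ml. The controls, at 0.457 and 2.27 CPM, lay between and overlapped the SOX2-positive libraries of 1000 ng/ml. All 5 SOX2-negative libraries were above the other 7, and the 3 SOX2-negative doses did not overlap.

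PAX2 was 4.63 ± 0.65 higher on the log2 scale, 24.8-fold, in SOX2-negative than in SOX2-positive cells (edgeR adjusted p = 0.00044). The call held in all 20 alternatives, with differences of 4.21 to 5.97, the widest being without WNT3A 1000 SOX2-positive replicate 2. Against the control, PAX2 rose by 3.81 ± 0.80 in SOX2-negative cells at 1000 ng/ml (edgeR adjusted p = 0.0078). Without control replicate 1 this was 3.11 with an adjusted p of 0.058, and without control replicate 2 it was 5.41 with an adjusted p of 0.013. At 100 ng/ml the difference was 1.55 ± 0.76 (edgeR adjusted p = 0.18). In SOX2-positive cells PAX2 differed from the control by -3.09 ± 1.00 at 100 ng/ml (edgeR adjusted p = 0.13) and by -0.81 ± 0.82 at 1000 ng/ml (adjusted p = 0.69). DESeq2 gave an adjusted p of 0.016 for the former.

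PAX5 and PAX8, which follow PAX2 at the boundary, were less abundant than PAX2 in SOX2-negative cells per kilobase of exon, and were called in none of the comparisons. PAX5 was at 0.559 and 1.72 CPM in the controls, between 0.272 and 1.33 CPM in the 5 SOX2-positive libraries and between 0 and 0.288 CPM in the 5 SOX2-negative libraries. Its order over the fractions was thus the reverse of that of PAX2, with the lowest SOX2-positive library just under the highest SOX2-negative one. The difference between the fractions was -2.23 ± 0.96 (edgeR adjusted p = 0.12). Without WNT3A 100 SOX2-negative replicate 1 it was -4.39, but the library left in that group held 0 counts of PAX5, so this value is no measure of size. Against the control PAX5 differed by -3.32 ± 1.40 in SOX2-negative cells at 100 ng/ml (edgeR adjusted p = 0.12), and the same omission again leaves only the library at 0 counts. PAX8 was at 0.508 and 0.952 CPM in the controls, at 0 to 0.333 CPM in SOX2-positive cells and at 0.120 to 1.11 CPM in SOX2-negative cells. Its highest SOX2-negative levels, 0.479 and 1.11 CPM, were at 1000 ng/ml, 1 just below and 1 just above the 2 controls. The fractions differed by 2.20 ± 0.94 for PAX8 (edgeR adjusted p = 0.12).

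The Engrailed genes, markers of the midbrain-hindbrain territory itself, were at the edge of detection. EN1 had 2 counts over the controls, 0 over the 5 SOX2-positive libraries and 15 over the 5 SOX2-negative libraries, where its level reached 0.299 CPM at most. Of these 15 counts, 7 and the highest level were in WNT3A 100 SOX2-negative replicate 2, and without that library EN1 reached 0.161 CPM. EN2 had 0 counts in the controls, 3 over the SOX2-positive and 27 over the SOX2-negative libraries. Of these 27 counts, 24 were in SOX2-negative cells of 1000 ng/ml, at 0.532 and 0.577 CPM, and the remaining 3 in the 1 library of 300 ng/ml. SOX2-negative cells of 1000 ng/ml thus held at least 8.73-fold more EN2 than the control, with 3 counts over the group as the floor, and the edgeR adjusted p was 0.089. With a fit of only those 2 groups it was 0.019. EN2 was at least 7.45-fold higher there than at 100 ng/ml (edgeR adjusted p = 0.26).

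GBX2, the hindbrain-side partner of the OTX2 border, was nearly absent from untreated colonies and higher in most treated libraries. It had 4 counts over the controls, at 0 and 0.146 CPM. SOX2-positive cells held 0.546 and 0.866 CPM at 100 ng/ml, 0.808 CPM at 300 ng/ml, and 1.00 and 0.181 CPM at 1000 ng/ml. SOX2-negative cells held 3.17 and 3.16 CPM at 100 ng/ml, 4.61 CPM at 300 ng/ml, and 4.10 and 0.495 CPM at 1000 ng/ml. All 10 treated libraries were above both controls in CPM, but WNT3A 1000 SOX2-positive replicate 2 held 4 counts, as many as control replicate 2. WNT3A 1000 SOX2-negative replicate 2 was the only SOX2-negative library within the SOX2-positive range.

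GBX2 rose against the control in SOX2-negative cells, by 5.19 ± 1.32 on the log2 scale at 100 ng/ml (edgeR adjusted p = 0.02) and by 4.71 ± 1.31 at 1000 ng/ml (adjusted p = 0.031). The pooled ratios were 37.2 (95% counting interval 14.2 to 139) and 24.3 (9.16 to 91.1). Both calls rested on the 2 controls: without control replicates 1 and 2 the edgeR adjusted p was 0.12 and 0.056 at 100 ng/ml, and 0.16 and 0.073 at 1000 ng/ml. The difference without control replicate 1 was 4.38 and 3.91, and without replicate 2 the control held no count. At 1000 ng/ml the call was also lost without WNT3A 1000 SOX2-negative replicate 1 (2.52, adjusted p = 0.26) and with the replicate number as a block (4.34, adjusted p = 0.051). In SOX2-positive cells the differences from the control were 3.04 ± 1.32 at 100 ng/ml (edgeR adjusted p = 0.27) and 2.74 ± 1.34 at 1000 ng/ml (adjusted p = 0.32). Between the fractions GBX2 differed by 2.06 ± 0.76 (edgeR adjusted p = 0.076). That gap passed the threshold without WNT3A 1000 SOX2-negative replicate 2 (2.47, adjusted p = 0.031), with the 3 doses averaged (0.048), with DESeq2 (0.026) and with no filter on low counts (0.0014).

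OTX2, the anterior partner of GBX2, is no member and was picked for this comparison after its values were seen. It was at 346 and 355 CPM in the controls and at 24.3 to 101 CPM in the 10 treated libraries, so the controls combined the highest OTX2 with the lowest GBX2. OTX2 fell by 1.98 ± 0.47 and 2.59 ± 0.48 in SOX2-positive cells of 100 and 1000 ng/ml (edgeR adjusted p = 0.041 and 0.012), and fell by 2.17 ± 0.47 and 2.75 ± 0.48 in SOX2-negative cells (adjusted p = 0.0094 and 0.0028). The first of these calls was lost without either of its own libraries or either control (adjusted p 0.15 to 0.27), with library totals (0.054) and with identifiers apart (0.067), the second without WNT3A 1000 SOX2-positive replicate 1 or either control (0.06 to 0.12), and the third without WNT3A 100 SOX2-negative replicate 2 (0.052). OTX2 at 1000 ng/ml in SOX2-negative cells kept its call, at -3.86 without replicate 1 of that group and -2.14 without replicate 2.

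Counted over the list, 2 of the 7 tested members were higher and 1 lower in SOX2-negative than in SOX2-positive cells, where 24.0% of all 17047 tested genes were called. The shares of all genes were 12.9% higher and 11.1% lower. Against the control, 0 members rose and 2 fell in SOX2-positive cells at 100 ng/ml, where 4.22% of all genes were called (2.69% higher, 1.53% lower). At 1000 ng/ml the members' counts were again 0 and 2, beside 5.60% of all genes (3.63% higher, 1.97% lower). In SOX2-negative cells 1 member rose and 1 fell at 100 ng/ml, beside 20.6% of all genes (11.9% higher, 8.66% lower). At 1000 ng/ml 2 rose and 2 fell, beside 17.8% (10.7% higher, 7.10% lower). The 4 comparisons share the same 2 control libraries. With so few members tested, no share is read from these counts. The median log2 difference of the 7 members was 1.38 between the fractions, and -2.65, -1.07, -0.54 and 0.12 in the 4 comparisons with the control, beside medians of all genes between 0.01 and 0.05. These medians include EN2, whose difference is no measure of size in the first 3 comparisons with the control, where each side held 3 counts or fewer. With so few members, its place in the order moves the median.

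**Figure D2:**
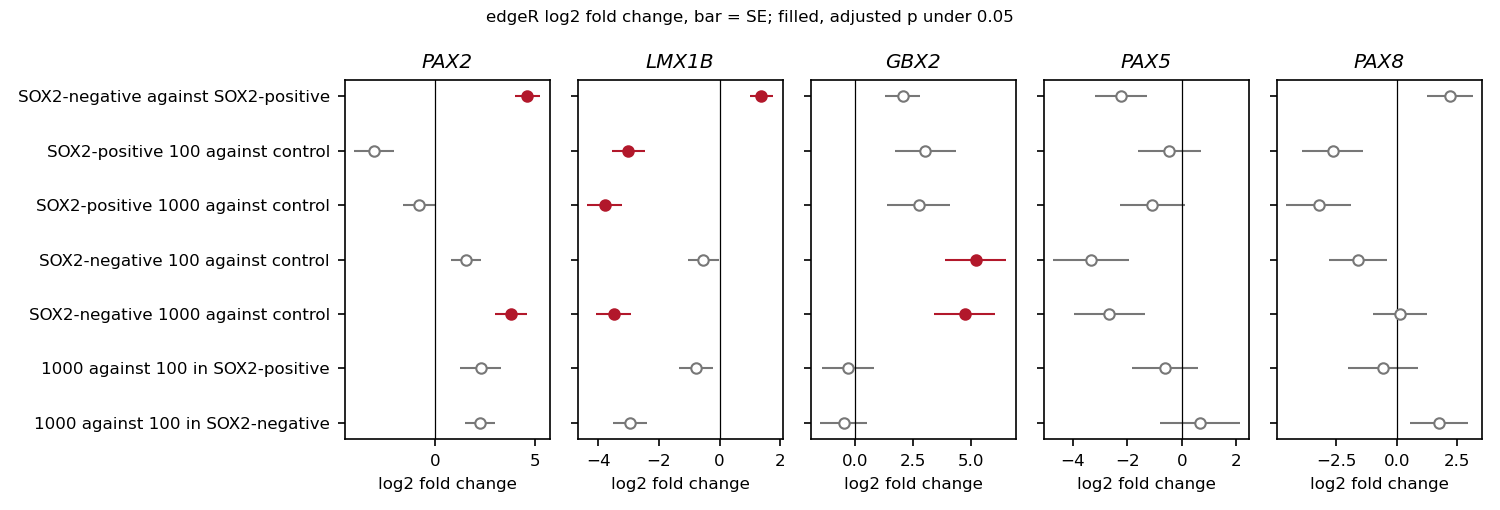
Log2 difference (edgeR) of PAX2, LMX1B, GBX2, PAX5 and PAX8 in the comparison of the fractions, the 4 comparisons with the control and the 2 dose comparisons, with bars of 1 SE, filled points for an adjusted p under 0.05 and open points for the others. PAX2 between the fractions lies at 4.63, LMX1B is filled on the negative side in 3 comparisons with the control, and no point of the dose comparisons is filled. LMX1A and EN2, at or near 0 counts in SOX2-negative cells and in the controls respectively, are not drawn, and PAX8 in SOX2-positive cells of 1000 ng/ml rests on 3 counts.

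No member was called between 1000 and 100 ng/ml of WNT3A in either fraction, and none was called for a dose effect that differed between the fractions. In these 3 comparisons edgeR called 0 of the 17047 genes (0.00%). At an unadjusted p under 0.05 it gave 293 genes and 0 members in SOX2-positive cells, 3107 genes and 3 members in SOX2-negative cells, and 1349 genes and 1 member for the difference of dose effects. DESeq2 called 5, 431 and 19 genes, of which 0, 1 and 0 were members.

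The 3 members at an unadjusted p under 0.05 in SOX2-negative cells were LMX1B, PAX2 and EN2, named here after their values were seen. LMX1B was lower at the higher dose by 2.96 ± 0.56 (log2 difference -2.96, unadjusted p = 3e-04, edgeR adjusted p = 0.12). PAX2 was higher at 1000 ng/ml by 2.26 ± 0.74 (unadjusted p = 0.012, edgeR adjusted p = 0.25). Without WNT3A 100 SOX2-negative replicate 2 the LMX1B difference was -2.46 (adjusted p = 0.57). LMX1B passed the threshold without WNT3A 100 SOX2-negative replicate 1 (adjusted p = 0.0032), with DESeq2 (0.00015) and with no filter on low counts (4.7e-07), and PAX2 with no filter (0.00016). In SOX2-negative cells the 2 genes thus had opposite orders over the 3 doses, with the library of 300 ng/ml between the others for each. For LMX1B the dose effect differed between the fractions by -2.18 ± 0.78 (unadjusted p = 0.019, edgeR adjusted p = 0.53), and the adjusted p was 0.044 without WNT3A 100 SOX2-negative replicate 1. For PAX2 that difference was -0.02 (edgeR adjusted p = 1), although its level in SOX2-positive cells at 1000 ng/ml rests on replicate 2. Without that library PAX2 differed by -0.41 between the doses in SOX2-positive cells, in place of 2.28.

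To compare the genes with each other, levels were divided by the length of each gene's merged exons, in CPM per kilobase. In the controls LMX1A came first, at a mean of 6.23, with its lower library at 5.32, and LMX1B second, at 2.64, with its higher library at 2.91. PAX2 (0.218), PAX5 (0.122) and PAX8 (0.0987) followed in the controls, and the ranges of these 3 genes overlapped. In SOX2-negative cells LMX1B led at 100 ng/ml with a mean of 1.82, followed by GBX2 at 1.37, which lay within the range of LMX1B. GBX2 at 1.99 and PAX2 at 1.79 led in the 1 library of 300 ng/ml. PAX2 led at 1000 ng/ml, at 3.15, above the higher GBX2 library at 1.77. In SOX2-positive cells LMX1B (0.326) and GBX2 (0.305) led at 100 ng/ml with overlapping ranges. LMX1A had the highest mean at 1000 ng/ml, 0.398, with 0.0282 in replicate 1 and 0.768 in replicate 2.

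**Figure D3:**
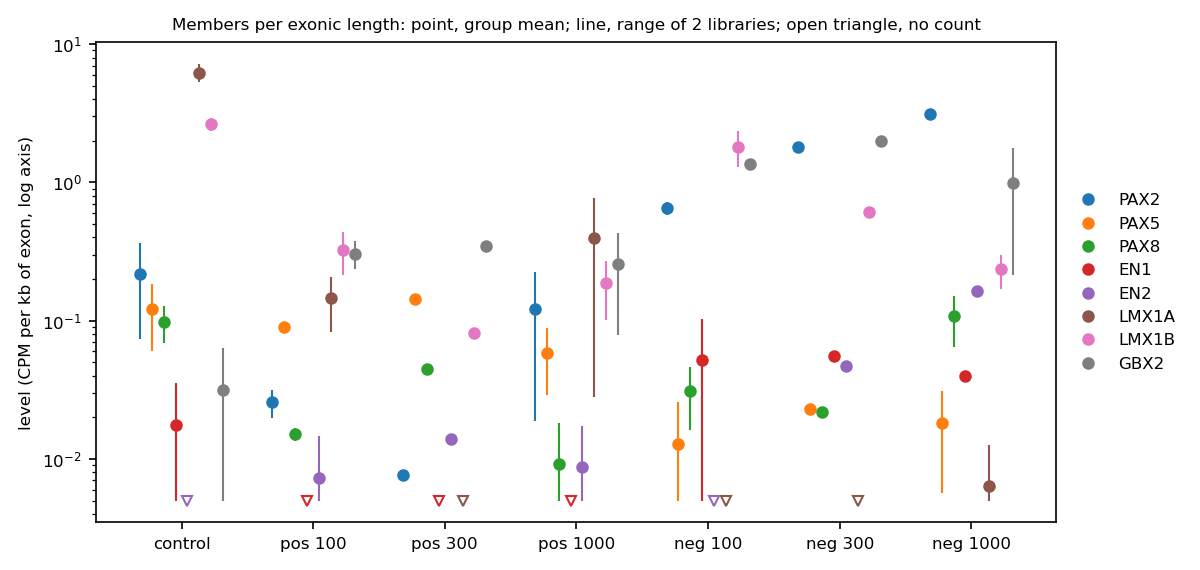
Level of the 8 genes in the 7 groups, in CPM per kilobase of exon on a log axis, with points for group means, lines for the range of 2 libraries (drawn down to the base of the axis where a library held no count) and open triangles for groups with no count. LMX1A is first in the control at 6.23, and PAX2 is first in SOX2-negative cells of 1000 ng/ml at 3.15.

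The other genes of the boundary were taken from 4 lists: the isthmic organizer, the forebrain and midbrain side, the hindbrain side, and the floor plate, roof plate and dopaminergic genes. In the organizer list 7 of 12 tested genes were higher and 1 lower in SOX2-negative than in SOX2-positive cells, with a median log2 difference of 1.14 against 0.01 over all genes. Of all tested genes 12.9% were higher and 11.1% lower, and these shares also stand beside the other lists' counts between the fractions. The organizer signal WNT1 was not called, with 9 counts over the SOX2-negative and 19 over the SOX2-positive libraries of 100 and 1000 ng/ml. FGF18 was not called and CNPY1 was not tested. FGF17, a ligand of the isthmus, was 4.92 ± 0.82 higher (edgeR adjusted p = 0.0014), at 20.3 to 165 CPM in SOX2-negative and 0.412 to 11.1 CPM in SOX2-positive cells. FGF8 was 3.48 ± 0.93 higher (edgeR adjusted p = 0.02), though at no more than 5.98 CPM, and its call was lost without replicate 2 of the SOX2-positive cells of 100 ng/ml (0.054) or replicate 1 of the SOX2-negative cells of 1000 ng/ml (0.07). DUSP6, a feedback inhibitor of the FGF pathway, was 2.11 ± 0.45 higher (edgeR adjusted p = 0.0064). HES3, a repressor of neural differentiation active at the isthmus, was lower by -7.64 ± 0.57 (edgeR adjusted p = 6.6e-06), at 11.7 to 38.4 CPM in SOX2-positive and 0 to 0.513 CPM in SOX2-negative cells. All treated cells received FGF8 protein and the controls did not. Against the control, SPRY1, SPRY2 and DUSP6, all feedback inhibitors of FGF signalling, were among the list's genes called higher in each of the 4 treated groups. FGF8, WNT3A and the sort differ together in these comparisons, and the part of each was not tested.

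The forebrain and midbrain side had 4 of 14 tested genes lower and 2 higher in SOX2-negative cells, with a median of -1.24, or -1.03 with genes at 0 counts on 1 side set to their bound. LHX5, a forebrain LIM factor, was lower by -6.53 ± 0.96 (edgeR adjusted p = 0.00063) and FEZF1, a forebrain zinc finger factor, by -5.14 ± 0.43 (adjusted p = 1.4e-05). RAX, the eye field factor, was lower by -5.46 ± 1.39 (edgeR adjusted p = 0.018), at no more than 2.67 CPM. RAX had 5 counts over the SOX2-negative libraries of 100 and 1000 ng/ml, none of them at 1000 ng/ml, so its difference is no measure of size. WNT3A 1000 SOX2-positive replicate 2, the library with high LMX1A and PAX2, was also high in LHX5, at 51.3 CPM against 3.48 CPM in replicate 1, and in FEZF1, at 68.0 against 18.2 CPM. The part of that library's other genes in its LMX1A level was not tested. Without it RAX lost its call (adjusted p = 0.26), and LHX5 kept its own at -5.04. RAX was also not called without replicate 2 of the SOX2-positive cells of 100 ng/ml (0.051), or without replicate 1 (0.052) or 2 (0.056) of the SOX2-negative cells of 1000 ng/ml. PAX7, a factor of the dorsal midbrain and the neural crest, was 3.37 ± 0.60 higher in SOX2-negative cells (edgeR adjusted p = 0.0021). Against the control this list had no called rise in any of the 4 groups. In SOX2-positive cells of 100 and 1000 ng/ml 8 and 6 of 14 genes fell, beside 1.53% and 1.97% of all tested genes. In SOX2-negative cells 7 fell at each dose, beside 8.66% and 7.10% of all tested genes.

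On the hindbrain side 7 of 12 tested genes were higher and 1 lower in SOX2-negative cells, with a median of 3.32. HOXB3, a Hox gene of the hindbrain, had no count in the controls or in any SOX2-positive library and was at 0.299 to 9.36 CPM in SOX2-negative cells (edgeR adjusted p = 0.0014). HOXB2 was 6.67 ± 1.35 higher (edgeR adjusted p = 0.0076), and the Hox cofactor MEIS2 4.27 ± 0.71 higher (adjusted p = 0.0015). HOXB2 had 4 counts over the SOX2-positive libraries of 100 and 1000 ng/ml, none of them at 100 ng/ml, so its difference is no measure of size. HOXB2 differed by 5.33 without replicate 2 of the SOX2-negative cells of 100 ng/ml, and by 8.73 without replicate 2 of the SOX2-positive cells of 1000 ng/ml. These genes are also expressed in posterior mesoderm.

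In the last list 5 of 13 tested genes were higher and 0 lower in SOX2-negative cells, with a median of 1.93. FOXA2, which marks the floor plate and definitive endoderm, was 5.41 ± 0.37 higher (edgeR adjusted p = 4.2e-06), reaching 271 CPM. FOXA1, its close relative, was 5.78 ± 0.48 higher (edgeR adjusted p = 1.4e-05). MSX1, of the roof plate and of mesoderm, was 5.31 ± 0.35 higher (edgeR adjusted p = 3.5e-06), and the ligand gene WNT5A 3.65 ± 0.37 higher (adjusted p = 5.6e-05). TH, the enzyme of dopamine synthesis, was at 0 in every SOX2-negative library and was not tested. At 100 or 1000 ng/ml taken alone, FGF8, DUSP6, RAX, PAX7, HOXB2 and MEIS2 missed the threshold at 1 dose or at both, while the other named genes of the 4 lists kept their calls.

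**Figure D4:**
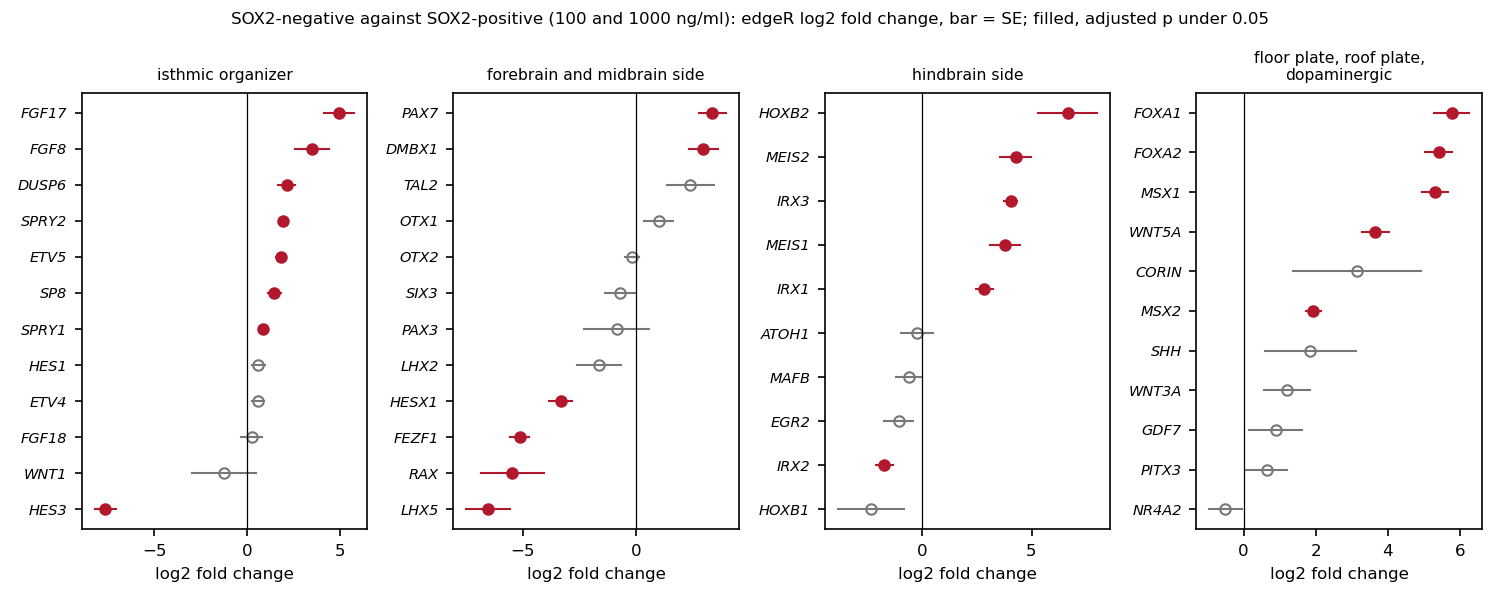
Log2 difference (edgeR) between SOX2-negative and SOX2-positive cells over 100 and 1000 ng/ml for most tested genes of the 4 lists, with bars of 1 SE, filled points for an adjusted p under 0.05 and open points for the others. FEZF2, BARHL1, HOXB3 and NEUROG2 are among those not drawn, because a side held 3 counts or fewer. The drawn genes run from HES3 at -7.64 to HOXB2 at 6.67, a value that rests on 4 SOX2-positive counts and is no measure of size.

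Markers of other tissues that use these genes moved with the fractions as well. All 8 definitive endoderm markers were higher in SOX2-negative cells, their summed level being 930 to 1816 CPM there, 21.5 to 85.1 CPM in SOX2-positive cells and 29.8 to 30.1 CPM in the controls. Of 10 tested markers of intermediate mesoderm and early kidney, 6 were higher, among them LHX1, GATA3, EYA1 and SALL1, and RET was lower. Their sum was 762 to 1022 CPM in SOX2-negative, 149 to 184 CPM in SOX2-positive and 444 to 530 CPM in control libraries, and WT1 was at 0 in the controls and in SOX2-negative cells of 100 ng/ml. Of 10 otic and placode markers 4 were higher and 3 lower, with sums of 195 to 235 CPM in SOX2-negative, 87.6 to 171 CPM in SOX2-positive and 517 to 606 CPM in control libraries. The controls were thus highest in the placode list, as in LMX1A, but this was not particular to placode markers. The forebrain and midbrain list summed to 1559 to 1873 CPM in the controls and to no more than 238 CPM in any treated library. Of 6 tested lateral mesoderm and limb markers 3 were higher in SOX2-negative cells, with sums of 16.7 to 212 CPM against 0.347 to 7.69 CPM in SOX2-positive cells and 14.2 to 14.6 CPM in the controls. Thyroid markers held 1 higher and 1 lower of 3 tested, and B cell markers, with MS4A1 and VPREB1 at 0 in every group, 0 of 3. The summed B cell level was 9.66 CPM at most.

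The neural ectoderm markers, for which SOX1 was at 0 in the controls and in all SOX2-negative libraries, had 2 of 6 tested genes lower in SOX2-negative cells (SOX3 and PAX6) and 0 higher. Their median log2 difference was -1.68 between the fractions. The sum, between 287 and 407 CPM in all groups, was mostly that of NES, an intermediate filament gene also expressed outside the nervous system, with 27497 counts over the SOX2-negative and 24959 over the SOX2-positive libraries of 100 and 1000 ng/ml. SOX3 had 42 counts against 1555 in the same libraries, and PAX6 9 against 193. Pluripotency markers were lower in SOX2-negative cells for 6 of 7 genes. Their sum was 689 to 1262 CPM in SOX2-negative, 2358 to 3350 CPM in SOX2-positive and 998 to 1135 CPM in control libraries. The part of these other cell types in the levels of the 8 members was not tested.

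Across the 12 libraries, the genes whose log2 level was most like that of each tested member were found by Pearson's r over the other 17046 tested genes. The libraries share the split into control and fractions, so high values are common and r is given as a description. PAX2 was most like ITGA8 (r = 0.978), DMRTA2 (0.954) and EDA (0.953), and LMX1A most like AIPL1 (0.978), HMX3 (0.976) and CYP26C1 (0.966). LMX1B was closest to NFE2 (0.974), FIGNL2 (0.964) and IGFBPL1 (0.961), and GBX2 to APCDD1 (0.97), FBLIM1 (0.958) and PHOSPHO1 (0.94). The closest genes to EN2 were ANKRD20A2 (0.963), HOXB4 (0.951) and PHLDA1 (0.928). For PAX5 they were FNBP1 (0.924), PCYT1B (0.924) and SCN9A (0.92), and for PAX8 AL139094.1 (0.877), MBNL2 (0.876) and IRGQ (0.859). No member was among the 3 nearest genes of another. Among the members themselves, r ran from -0.831 for LMX1A with GBX2 to 0.613 for PAX2 with EN2. PAX2 and PAX5 were at -0.704, and LMX1A and LMX1B at 0.483.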

How the data were processed

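Poly-A RNA was sequenced as paired reads, per the labels' protocols. The authors deposited 1 table of estimated counts per Ensembl identifier with gene symbols, and the submitters' processing notes name Salmon and GRCh38 without versions. These expected counts were rounded, identifiers of a symbol were summed (37951 to 35940), and genes with low counts were left out (edgeR's filterByExpr, minimum count 10, minimum total 15). edgeR 4.0.16 in R 4.3.3 fitted 7 group means to the 12 libraries with TMM scaling and the quasi-likelihood test, and p-values were Benjamini-Hochberg adjusted over the 17047 tested genes, with a threshold of 0.05. Residual degrees of freedom were 5. CPM used TMM-scaled totals. Pooled counts carry exact 95% intervals, which cover counting error only, as does the floor of 3 counts. Members, lists and tests were chosen with earlier results of these data known. Genes beyond the 8 members were named by rule: the 3 most correlated genes per tested member (log2 CPM, prior count 2), and the 4 genes of largest called difference between the fractions per list. Some of these genes are not reported here. Replicate numbers mark the 2 biological repeats, per the series' design text, and both fractions were sorted from the colonies of their dose and repeat. Same-numbered deviations correlated at -0.06 to 0.223 over 10 pairs of groups, 5 of them above 0.1, so the block is an alternative. Between the fractions of the same dose they correlated at -0.013 at 100 ng/ml and 0.172 at 1000 ng/ml. The main fit takes the fractions of a dose and repeat as independent libraries. The block is a single term for the replicate number over all groups and does not pair fractions within a dose. Replicates differed by more than sampling noise (chi-square per degree of freedom 21.9 to 136). Alternatives included DESeq2 1.42.0, library totals, no filter, identifiers apart and each library left out.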

Additional observations from a re-analysis of the deposited data

How the results depend on the processing

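Of 842 alternative values of the tested members, 767 kept their direction and their side of the threshold, 35 lost the call, 16 gained it and 24 changed sign. Most of the 842 belong to differences that were not called and so could not lose a call. Among the called differences, losses ran from 0 of 20 alternatives for PAX2 between the fractions to 10 of 17 for LMX1A in SOX2-positive cells of 1000 ng/ml against the control. Groups of 2 libraries limit every test here, EN1 and EN2 lie near the floor of 3 counts, and no value at 300 ng/ml has a replicate. Genes called, of 17047, depended on the setting. With each library left out in turn they ran from 2638 to 6835 between the fractions (4085 with all libraries), from 85 to 1508 and 128 to 1803 in SOX2-positive cells of 100 and 1000 ng/ml against the control (719 and 954), and from 1410 to 6993 and 1397 to 4675 in SOX2-negative cells (3514 and 3028). The lowest value came without control replicate 2 in the 4 comparisons with the control, and without WNT3A 100 SOX2-positive replicate 2 between the fractions. The dose comparison ran from 0 to 5739 in SOX2-negative cells and its difference between the fractions from 0 to 3795, both highest without WNT3A 100 SOX2-negative replicate 1. Members called ran from 0 to 2 in SOX2-positive cells against the control at each dose, from 1 to 3 and from 2 to 4 in SOX2-negative cells of 100 and 1000 ng/ml, from 0 to 1 for the dose comparison in SOX2-negative cells and from 0 to 1 for the difference of dose effects.

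Between the fractions at 1000 ng/ml alone, an alternative chosen after seeing the data, 1921 genes were called. With no filter on low counts the calls were 1608 (4 members) and 1799 in SOX2-positive cells of 100 and 1000 ng/ml against the control, 107 and 1551 (2 members) for dose in SOX2-positive and SOX2-negative cells, and 308 for the difference of dose effects. With only the compared groups fitted they were 2841 and 2188 in SOX2-positive cells against the control, 1798 in SOX2-negative cells of 100 ng/ml, and 1 for dose in SOX2-negative cells. DESeq2 called 1370 and 1601 (1 member) in SOX2-positive cells against the control, 5 and 431 (1 member) for dose in SOX2-positive and SOX2-negative cells, and 19 for the difference. With identifiers apart, 1 member was called at each dose in SOX2-positive cells against the control, and 1 gene each for dose in SOX2-positive cells and for the difference. Library totals alone left 1 member called in SOX2-positive cells of 1000 ng/ml. The replicate block gave 1 gene for dose in SOX2-negative cells and changed 1 member call, that of GBX2 in SOX2-negative cells of 1000 ng/ml (adjusted p = 0.051).

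The 24 changes of sign were all in differences that edgeR did not call, and each range here covers every library left out in turn. Against the control, PAX5 in SOX2-positive cells of 100 ng/ml ran from -1.03 to 0.58, positive without control replicate 2. PAX2 in SOX2-positive cells of 1000 ng/ml ran from -3.50, without its own replicate 2, to 0.78, without control replicate 2. PAX8 in SOX2-negative cells of 1000 ng/ml ran from -0.63, without its own replicate 2, to 0.65, without control replicate 2. For dose in SOX2-positive cells the ranges were -0.41 to 3.09 for PAX2, -2.33 to 2.37 for LMX1A, -1.94 to 0.50 for GBX2 and -4.31 to 0.26 for PAX8, whose lowest value compares with a library at 0 counts and is no measure of size. Each of these ranges ends at the omission of replicate 1 and of replicate 2 of the SOX2-positive cells of 1000 ng/ml. For dose in SOX2-negative cells the ranges were -0.96 to 4.97 for PAX5, again against a library at 0 at its upper end, and -2.66 to 0.37 for GBX2, where replicates 1 and 2 of 1000 ng/ml give the ends. The difference of dose effects between the fractions ran from -0.83 to 2.67 for PAX2, from -2.36 to 1.47 for GBX2 and from -0.33 to 5.60 for PAX5. The upper end for PAX5 again compares with a library at 0 counts and is no measure of size. For PAX2 it was also 0.048 with library totals, 0.23 with the replicate block and 0.0051 with identifiers apart. Where no setting's own construction gives it, the cause was not tested.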
